A study of Rattus norvegicus with 4 samples.

Results

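Ribosomal proteins are the protein part of the cytosolic ribosome, and 42 of their genes were followed here in rat lens capsules after extracapsular lens extraction (ECLE), an operation in which the capsule is opened, the lens content is taken out and lens epithelial cells (LECs) stay behind. A gene was included when a probe set, a group of array probes directed at a transcript, had in the platform annotation a single symbol of the form *Rpl* or *Rps* with a number, or was *Rplp0*, *Rplp1*, *Rplp2* or *Rpsa*. The brightest probe set stood for each gene. This gave 29 genes of the large (60S) and 13 of the small (40S) subunit, 42 of the 14217 genes with a single symbol. Of the 79 genes of the full set, 37 were not included. For 28 of these the probe set carries several symbols, often of near-identical copies, and the others were not analysed here. The rule used no measured difference between groups.

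A ribosome holds 1 copy of most of its proteins, so cells tend to make them in matched amounts. The 40S subunit reads the mRNA, and the 60S subunit joins amino acids and lets the new chain out through a tunnel. Most mRNAs of ribosomal proteins begin with a stretch of pyrimidines, the 5' terminal oligopyrimidine (TOP) tract, through which the kinase complex mTORC1 adjusts their translation to nutrients and growth factors. In the lens, the epithelial cells keep up this synthesis, whereas maturing fiber cells degrade their organelles.

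The rats were female albino SD animals operated on in both eyes at 7 weeks of age, and right eyes were used for the arrays. Capsules of day 0 were taken once surgery was complete, so all groups had ECLE, and animals were 7, 8 and 9 weeks old at day 0, 1 W (7 days) and 2 W (14 days). There was 1 array at day 0, 2 at 1 W, labeled as biological replicates 1 and 2, and 1 at 2 W. The study's methods name more samples in each group than there are arrays here, and do not say how eyes or animals were pooled.

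The start of the transcript is shown for 7 genes that the results return to, because the pyrimidine tract is the feature that mRNAs of this class are known for. RefSeq promoters (rat assembly GRCr8) were found for 37 of the 42 genes, and not for *Rpl23a*, *Rpl27*, *Rpl30*, *Rpl7* and *Rps29*. Each line gives, 5' to 3', 10 bases before the annotated start and the first 20 bases of the transcript. Capitals mark the longest run of C or T that touches the 10 bases on either side of the start, as far as it lies inside the window.
Rplp0: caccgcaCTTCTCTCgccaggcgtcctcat
Rpl35: CTTCCTCTTTCTCTCgaaccgggcggcctc
Rpl28: cccctagtgTCTTTCTTTCCgtctccggcc
Rpl39: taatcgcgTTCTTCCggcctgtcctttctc
Rps24: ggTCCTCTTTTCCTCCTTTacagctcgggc
Rpl11: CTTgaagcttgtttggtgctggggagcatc
Rpl41: CTCggaagtgacgacaccaagcacgccatt
The windows lie at chr12:46718371-46718400 (*Rplp0*), chr3:43165902-43165931 (*Rpl35*), chr1:78083513-78083542 (*Rpl28*), chrX:121195877-121195906 (*Rpl39*), chr5:153560783-153560812 (*Rpl11*) and chr7:1563478-1563507 (*Rpl41*), all on the minus strand, and at chr16:96507-96536 (*Rps24*) on the plus strand. The first 4 genes have a C at the annotated start followed by at least 4 pyrimidines, the strict form of the tract. *Rps24* has a run of 17 pyrimidines but a T at the annotated start. *Rpl11* and *Rpl41* have runs of 3, which says only that these letters are not at the annotated start.

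The strict tract, read on the transcribed strand, was present in 12 of the 37 promoters (32.4%) and in 550 of 21842 promoters of all protein-coding genes (2.52%). A run of 8 or more pyrimidines touching the same 20 bases was present in 25 of the 37 (67.6%) and in 13.4% of all promoters. The median run was 10 bases in the ribosomal protein genes and 4 in all genes.

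Intensities are printed below as deposited, on a linear scale. Mean intensity over all probe sets was 244 at day 0, 218 and 210 on replicates 1 and 2 of 1 W (the 1 W pair, always in this order), and 165 at 2 W. For the ratios each array was therefore divided by its mean, so that a gene with equal deposited intensities at day 0 and 2 W has a ratio above 1. The 1 W ratio averages both arrays on the log2 scale. Genes were tested with limma where their mean log2 level reached the 40th percentile, which left 40 of the 42 (28 of the 60S and 12 of the 40S subunit) among 10455 genes. *Rpl30* and *Rps13* were below this filter. The only replicate spread in the fit is that between the arrays at 1 W, and the fit assumes that the single arrays of the other groups vary alike. With so few arrays, each value has limited precision.

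The 42 genes held a larger share of the summed intensity on each array after ECLE than at day 0. Their share was 2.72% at day 0, 3.99% on replicate 1 and 3.75% on replicate 2 at 1 W, and 4.44% at 2 W. The 60S genes held 1.81%, 2.69%, 2.53% and 3.06% in the same order. The 40S genes held 0.908%, 1.3%, 1.22% and 1.38%. The median deposited intensity of the 42 genes was 5024 at day 0, 6594 and 6128 in the 1 W pair, and 6000 at 2 W. Without any scaling, the median was thus highest at 1 W, and the 2 W array was still above day 0.

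**Figure D1:**
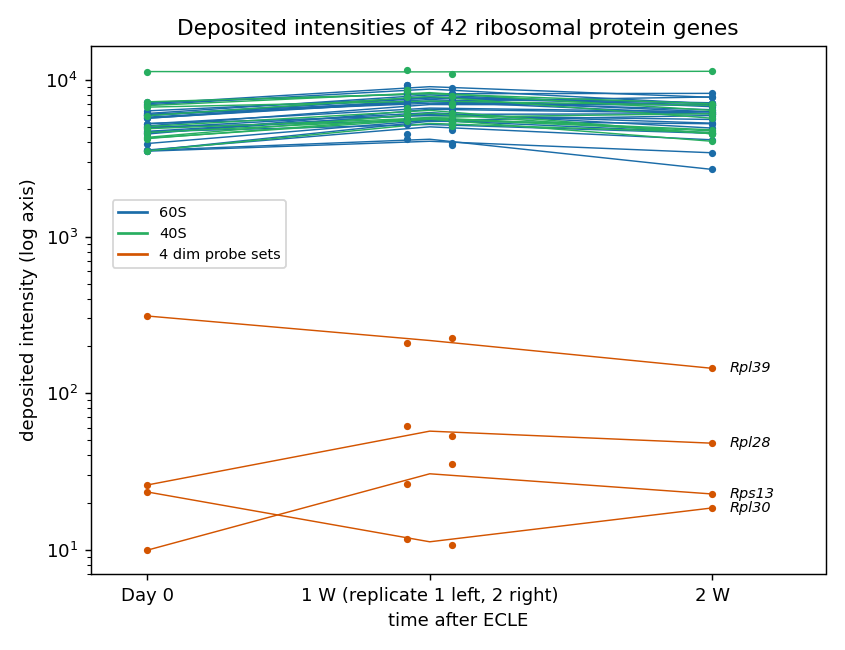
Deposited intensity (log axis) of each of the 42 genes at day 0, on both arrays at 1 W and at 2 W after ECLE. Points are arrays, and lines join day 0, the geometric mean of the arrays at 1 W and 2 W. Of the genes, 38 form a narrow band of bright probe sets, and *Rpl39*, *Rpl28*, *Rps13* and *Rpl30* lie far below it.

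At 1 W after ECLE, the ribosomal protein genes were higher than at day 0 by a similar and modest amount. The median log2 ratio of the 40 genes was 0.53, with quartiles of 0.43 and 0.60 and a range from -0.33 to 1.34. Over all 10455 genes the median was -0.01. The ratio was above 1 for 39 of the 40, against 49.2% of all genes, and *Rpl39* was the exception. The spread among the 40 log2 ratios was small (SD 0.23, against 0.66 for all genes), and without the dim probe sets of *Rpl28* and *Rpl39* the SD was 0.14. Less RNA per cell and fewer cells of a type cannot be told apart in such bulk samples.

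No ribosomal protein gene passed limma at 1 W after Benjamini-Hochberg adjustment over all probe sets. It called 0 of the 40 higher, against 0.0478% of all genes, and 0 lower, against 0.0%. The lowest adjusted p was 0.119. At an unadjusted p under 0.05, 37 of the 40 were higher (26 of the 60S and 11 of the 40S subunit), against 10.4% of all genes, and 0 were lower, against 8.92%. This count was 10, with 1 lower, for intensities as deposited and 11 without an intensity trend in the fit. The share of all genes at an unadjusted p was not counted in these settings. By the fold rule, 1 gene (*Rpl28*) was over 2.0-fold, against 4.95% of all genes, and 0 were under 0.5-fold, against 3.71%. *Rpl28* was at percentile 34.8 of the day 0 array and at 55.6, 52.4 and 58.3 on the arrays after ECLE. It passed the filter at the 40th percentile through the arrays where it was high, so this count says little. The ratios of the ribosomal protein genes were thus mostly below 2.0-fold, and their standard errors, with a median of 0.11 on the log2 scale, were smaller than most of the log2 ratios.

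*Rpl35*, a protein beside the opening of the exit tunnel, had the highest ratio among the bright probe sets. Its intensity was 3531 at day 0, 5632 and 5271 in the 1 W pair, and 5253 at 2 W. All 3 arrays after ECLE were above day 0. The log2 ratio at 1 W was 0.82 (standard error 0.11, 1.76-fold, limma adjusted p = 0.119). *Rps28*, a small 40S protein near the path of the mRNA, had intensities of 3522 at day 0, 5491 and 5080 in the 1 W pair, and 4611 at 2 W, with a log2 ratio at 1 W of 0.78 (standard error 0.11, adjusted p = 0.125). *Rps3*, which lies where the mRNA enters the 40S subunit, had 4298 at day 0, 6460 and 5820 in the 1 W pair, and 4533 at 2 W. Its log2 ratio at 1 W was 0.71 (standard error 0.12, adjusted p = 0.142), and its deposited 2 W intensity was close to that of day 0.

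At the other end, *Rps29*, a small zinc-binding 40S protein, had intensities of 11313 at day 0, 11585 and 10940 in the 1 W pair, and 11357 at 2 W. Its 4 deposited values were nearly equal, and its log2 ratio at 1 W was 0.19 (standard error 0.10, adjusted p = 0.405). This probe set was among the brightest of the arrays, whose highest intensities were between 11917 and 14184. Whether signal near the top of the scale is compressed was not tested. *Rps6*, the 40S protein phosphorylated by the S6 kinases downstream of mTORC1, had intensities of 6705 at day 0, 7733 and 6953 in the 1 W pair, and 6890 at 2 W. All arrays after ECLE were above day 0 by a small margin, and the log2 ratio at 1 W was 0.32 (adjusted p = 0.274). *Rpl13a*, which also leaves the ribosome to silence inflammatory mRNAs, had a log2 ratio at 1 W of 0.33 (adjusted p = 0.255). For *Rpl24*, a 60S protein at a bridge between the subunits, it was 0.35 (adjusted p = 0.240).

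In the median, the arrays at 1 W differed by less than the distance of either from day 0. The median log2 ratio of the 40 genes was 0.58 on replicate 1 and 0.49 on replicate 2. Replicate 1 was above replicate 2 for 35 of the 40 genes, against 47.1% of all genes, with a median difference of 0.10 on the log2 scale. The spread of this difference was an SD of 0.08 over the 40 genes and 0.46 over all genes. The widest gaps among the 40 tested genes were those of *Rpl21* (0.23 on the log2 scale), with intensities of 5270 at day 0, 6535 and 5367 in the 1 W pair, and 5594 at 2 W, and of *Rpl34* (0.22), with 3926, 6071, 5046 and 4598. Both 1 W arrays were above day 0 for these 2 genes.

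**Figure D2:**
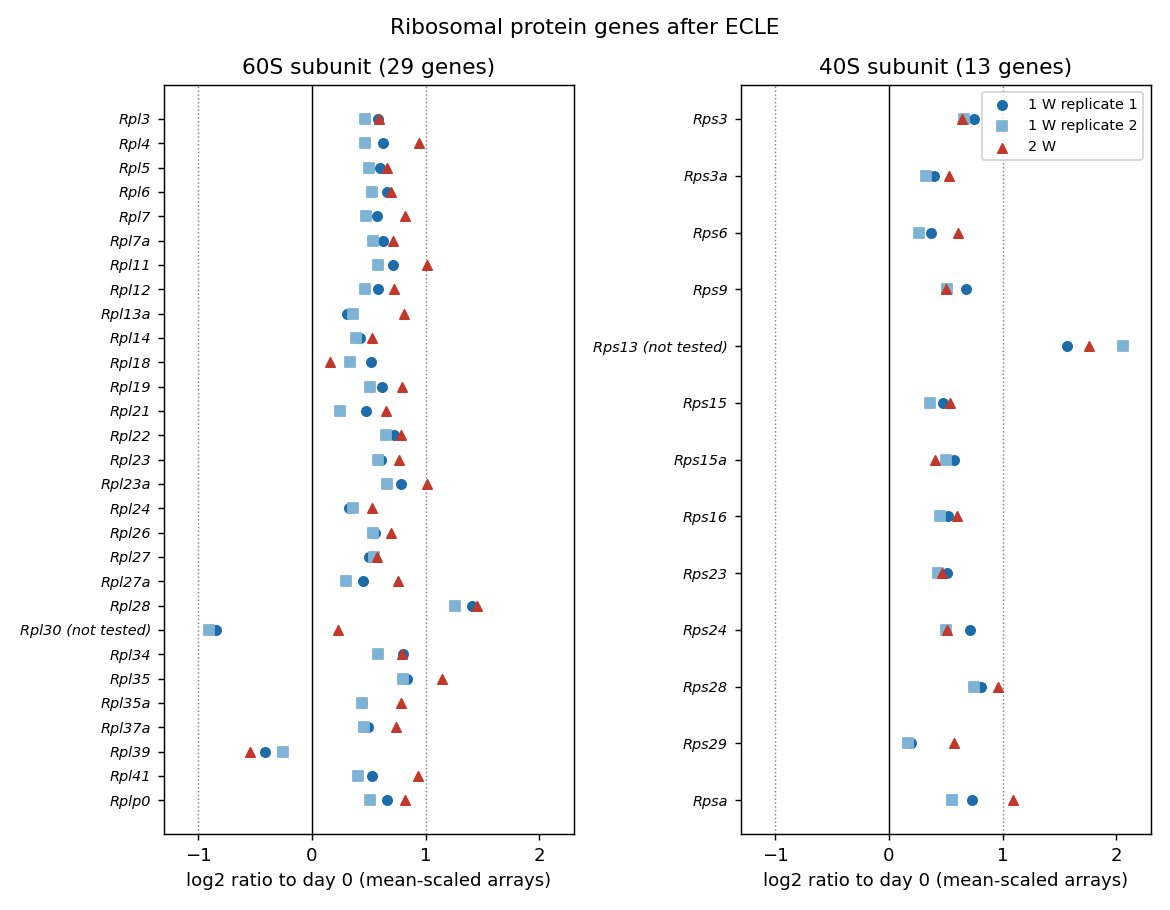
Log2 ratio to day 0 (arrays scaled by their mean) of each 60S gene (left) and 40S gene (right) on both replicates of 1 W and on the 2 W array. Dotted lines mark ratios of 0.5 and 2.0. For 39 of the 40 tested genes all 3 arrays lie to the right of 0, with *Rpl39* to the left.

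At 2 W the median log2 ratio to day 0 was 0.71 (quartiles 0.56 and 0.81, range -0.54 to 1.45), and that of all genes was -0.21. The ratio was again above 1 for 39 of the 40 genes, against 37.5% of all genes. All 3 arrays after ECLE were above day 0 for 39 of the 40, against 26.6% of all genes. The ratios at 1 W and 2 W share the day 0 array, so these counts are not separate evidence. With intensities as deposited, the ratio at 2 W was above 1 for 30 of the 40 genes, against 14.3% of all genes, and the median log2 ratio was 0.14 beside -0.78.

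limma called 0 of the 40 genes higher at 2 W, against 0.0478% of all genes, and 0 lower, against 0.0%. At an unadjusted p under 0.05, 38 were higher (26 of the 60S and all 12 tested of the 40S subunit), against 10.8% of all genes, and 0 were lower, against 22.0%. This count was 2, with 1 lower, as deposited, 18 with quantile normalization and 22 without an intensity trend. The share of all genes was not counted in these settings either. The lowest adjusted p was 0.0558 (*Rpl35*). The adjusted calls depended on the scaling too. With arrays divided by their median, 9 of the 40 genes passed at 2 W (*Rpl11*, *Rpl13a*, *Rpl22*, *Rpl23a*, *Rpl35*, *Rpl4*, *Rpl41*, *Rps28* and *Rpsa*, adjusted p from 0.0247 to 0.0487), while 661 of all genes were called higher. With the 75th percentile as divisor, 5 passed (*Rpl11*, *Rpl23a*, *Rpl35*, *Rps28* and *Rpsa*, adjusted p from 0.0486 to 0.0489), beside 214 of all genes. With quantile normalization 0 passed, and 0 of all 10460 genes were called in either direction. With intensities as deposited 1 (*Rpl39*) was called lower, beside 4415 of all 10455 genes.

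By the fold rule 5 of the 40 genes were over 2.0-fold at 2 W (*Rpl11*, *Rpl23a*, *Rpl28*, *Rpl35* and *Rpsa*), against 6.6% of all genes. Under 0.5-fold were 0, against 12.3%. Of the 5, *Rpl28* passed the filter through the arrays where it was high. As deposited 0 of the 40 were over 2.0-fold and 1 under 0.5-fold. Over 2.0-fold were 18 with the array median, 22 with the 75th percentile and 1 with quantile normalization. The share of all genes by the fold rule was not counted under these scalings. Their median log2 ratios over all genes at 2 W were -0.78, 0.06, 0.1 and 0.03 in this order. *Rpl35* had a log2 ratio of 1.14 at 2 W (standard error 0.13, 2.2-fold, limma adjusted p = 0.0558). *Rpsa*, which builds the back of the 40S subunit and also gives rise to a receptor for laminin, a component of the lens capsule, had intensities of 4223 at day 0, 6249 and 5335 in the 1 W pair, and 6090 at 2 W. All 3 arrays after ECLE were above day 0, and the log2 ratio was 0.64 at 1 W (adjusted p = 0.162) and 1.09 at 2 W (standard error 0.15, 2.14-fold, adjusted p = 0.0579). *Rpl23a*, a docking site for the signal recognition particle at the tunnel opening, had 4514 at day 0, 6902 and 6112 in the 1 W pair, and 6132 at 2 W. Its log2 ratio was 0.72 at 1 W (adjusted p = 0.142) and 1.01 at 2 W (adjusted p = 0.0577).

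Whether the ribosomal protein genes were higher at 2 W than at 1 W depended on how the arrays were scaled. With division by the mean, the median log2 ratio of 2 W to 1 W was 0.17 (quartiles 0.10 and 0.29, range -0.27 to 0.48), beside -0.22 for all genes. The ratio was above 1 for 33 of the 40, against 32.0% of all genes. With intensities as deposited, the median was -0.21 and 6 of the 40 were above 1, against 12.3% of all genes, and with quantile normalization the median was -0.05 and 15 were above 1, against 45.0%. With division by the array median or 75th percentile it was 0.32 or 0.41. limma called 0 of the 40 in either direction, against 0.0% of all genes each way, with a lowest adjusted p of 0.154 (*Rpl13a*). At an unadjusted p under 0.05, 9 were higher at 2 W (*Rpl11*, *Rpl13a*, *Rpl27a*, *Rpl35*, *Rpl35a*, *Rpl4*, *Rpl41*, *Rps29* and *Rpsa*), against 6.02% of all genes, and 0 were lower, against 18.7%. As deposited 0 were higher and 5 lower, with quantile normalization 0 and 7, with the array median 3 and 0, with the 75th percentile 23 and 0, without a filter 3 and 0, and without an intensity trend 0 and 0. For these settings the share of all genes at an unadjusted p was not counted. By the fold rule, with mean-scaled arrays, 0 of the 40 were over 2.0-fold and 0 under 0.5-fold, against 2.49% and 5.13% of all genes.

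The 2 W array lay above both 1 W arrays for 32 of the 40 genes, against 24.2% of all genes, and below both for 5 (*Rpl18*, *Rpl39*, *Rps15a*, *Rps3* and *Rps9*), against 58.1%. *Rpl41*, the smallest ribosomal protein, had intensities of 6032 at day 0, 7756 and 6883 in the 1 W pair, and 7786 at 2 W. The log2 ratio to day 0 was 0.47 at 1 W (adjusted p = 0.197) and 0.93 at 2 W (adjusted p = 0.06). *Rpl13a* had intensities of 5005 at day 0, 5513 and 5507 in the 1 W pair, and 5926 at 2 W, with the highest value at 2 W also without scaling. Its log2 ratio at 2 W was 0.81 to day 0 (adjusted p = 0.0627) and 0.48 to 1 W (standard error 0.11, adjusted p = 0.154). *Rpl18*, a 60S protein, had 3551 at day 0, 4532 and 3860 in the 1 W pair, and 2683 at 2 W. It had the lowest ratio of 2 W to 1 W, with a log2 value of -0.27 (standard error 0.13, adjusted p = 0.320), and its log2 ratio to day 0 was 0.43 at 1 W and 0.16 at 2 W (adjusted p = 0.514).

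The subunits had near-equal medians at 1 W, with log2 ratios to day 0 of 0.54 for the 28 genes of the 60S subunit and 0.51 for the 12 of the 40S subunit. At 2 W the medians were 0.77 and 0.56, with intensities as deposited 0.20 and -0.01, and with quantile normalization 0.27 and 0.16. With mean-scaled arrays, the 2 W array was above both 1 W arrays for 25 of the 28 genes of the 60S subunit and for 7 of the 12 genes of the 40S subunit. The difference between the subunits was not tested. The 40S genes with a ratio of 2 W to 1 W below 1 were *Rps3*, *Rps9*, *Rps15a*, *Rps23* and *Rps24*, and the 60S genes *Rpl18* and *Rpl39*, 7 of the 40 against 68.0% of all genes. *Rps23*, a protein of the decoding center, was nearly level, with intensities of 6857 at day 0, 8681 and 7928 in the 1 W pair, and 6392 at 2 W, and a ratio of 2 W to 1 W of 0.998. *Rps9*, which also lies on the mRNA path, had 4250, 6047, 5215 and 4057, and *Rps15a* had 5042, 6653, 6144 and 4527. For these 3 genes the deposited 2 W intensity was below that of day 0, while their mean-scaled log2 ratios at 2 W were 0.47, 0.50 and 0.41.

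Grouped by place in the ribosome, the genes had similar medians at 1 W. The stalk, which recruits elongation factors, was represented by *Rplp0* and *Rpl12*, since *Rplp1* and *Rplp2* were not included. *Rplp0*, the base of the stalk, had intensities of 5934 at day 0, 8336 and 7283 in the 1 W pair, and 7095 at 2 W. *Rpl12* had 5787, 7699, 6902 and 6457. Both were above day 0 on all 3 arrays. The log2 ratios of *Rplp0* were 0.59 at 1 W (adjusted p = 0.168) and 0.82 at 2 W (adjusted p = 0.0665), and those of *Rpl12* were 0.53 (adjusted p = 0.175) and 0.72 (adjusted p = 0.07).

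*Rpl5* and *Rpl11* form with 5S rRNA a particle that, when not built into ribosomes, binds Mdm2 and thereby stabilizes p53. *Rpl5* had intensities of 5703 at day 0, 7677 and 6919 in the 1 W pair, and 6074 at 2 W. *Rpl11* had 5093, 7421, 6536 and 6932. Both were above day 0 on all 3 arrays. The log2 ratio at 1 W was 0.55 for *Rpl5* and 0.64 for *Rpl11*. At 2 W it was 0.66 for *Rpl5* (adjusted p = 0.0755) and 1.01 for *Rpl11* (adjusted p = 0.0577).

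For the proteins of the exit tunnel and its opening, 6 of 8 listed genes were tested, and their median log2 ratio was 0.56 for 1 W, and 0.86 for 2 W. *Rpl4*, which lines the tunnel, had intensities of 4696 at day 0, 6492 and 5600 in the 1 W pair, and 6084 at 2 W, and log2 ratios of 0.55 (adjusted p = 0.183) and 0.94 (adjusted p = 0.063). For the mRNA path of the 40S subunit, 4 of 8 listed genes were tested, with medians of 0.59 at both times. *Rps9*, described above, was not on this list. Of 9 listed genes whose loss causes Diamond-Blackfan anemia, an inherited failure of red cell formation, 4 were tested, and their medians were 0.57 and 0.72. Among them *Rps24* had intensities of 5912 at day 0, 8609 and 7169 in the 1 W pair, and 5693 at 2 W, and log2 ratios of 0.60 (adjusted p = 0.184) and 0.51 (adjusted p = 0.131). Of these groups, the tunnel genes had the highest median at 2 W and the genes of the mRNA path the lowest, with 2 to 6 genes in a group and no test between groups.

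The 4 genes with dim probe sets did not follow the narrow band of the others. *Rpl39*, a short 60S protein of the tunnel wall, was the one tested gene below day 0. Its intensity was 311 at day 0, 209 and 225 in the 1 W pair, and 144 at 2 W, with log2 ratios of -0.33 (standard error 0.18, adjusted p = 0.396) and -0.54 (standard error 0.21, adjusted p = 0.174). *Rpl28*, a 60S protein, had 25.9 at day 0, 61.5 and 53.2 in the 1 W pair, and 47.9 at 2 W. Its log2 ratios of 1.34 and 1.45 were the highest of the 40 and had the widest errors (standard errors 0.32 and 0.37, adjusted p = 0.192 and 0.0991). On the day 0 array it was at percentile 34.8, so it passed the filter through the arrays where it was high. The strict tract printed above is present in both *Rpl28* and *Rpl39*, whose ratios were at opposite ends of the range. Below the filter and untested, *Rps13* had intensities of 9.93, 26.3, 35.5 and 22.7, and *Rpl30* had 23.4, 11.7, 10.8 and 18.5. Such low values carry no detection call here.

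Of the 42 genes, 5 had more than 1 probe set, with 6 dimmer ones in all. The pair of further *Rpsa* probe sets was also above day 0 on each array, with log2 ratios at 1 W and 2 W of 0.80 and 1.21 for one and 0.50 and 0.68 for the other. Those of the other genes differed from the brightest probe set in the size or the direction of the ratio. The second *Rps24* probe set had intensities of 101, 60.5, 61.6 and 39.0, with log2 ratios of -0.53 and -0.80, opposite in direction to the one described above. The second probe set of *Rpl3* had log2 ratios of 0.08 and -0.09, and that of *Rpl7* had 0.16 and 0.53. The second *Rpl14* probe set had 4.19 at day 0, 31.2 and 32.5 in the 1 W pair, and 7.9 at 2 W (log2 ratios 3.12 and 1.48). Direction was thus not shared by all probe sets of *Rps24*, nor at 2 W by those of *Rpl3*.

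The 34 probe sets with several symbols, at least 1 of them a ribosomal protein, were read as well. Of these, 30 name no gene of the 42, and the others name at least 1 of them. This comparison was chosen after the data were seen. All 34 were above day 0 at 1 W and at 2 W, against 43.4% and 34.7% of all tested probe sets, with median log2 ratios of 0.50 and 0.70. They held 2.3% of the summed intensity at day 0, 3.34% and 3.16% in the 1 W pair, and 3.66% at 2 W. These values were close to those of the 40 genes.

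Among the ribosomal protein genes, the ratio differed little with the presence of the strict tract. The 12 tested genes with it had medians of 0.52 for 1 W and 0.78 for 2 W on the log2 scale, and the 24 without it 0.54 and 0.68. With runs of 8 or more pyrimidines (24 genes) the medians were 0.57 and 0.77, and with shorter runs (12 genes) they were 0.48 and 0.60. *Rpl11* and *Rpl41*, with runs of 3 in the printed windows, were at 1.01 and 0.93 at 2 W.

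The scaling moved the size of these ratios. Against day 0 the median of the 40 genes stayed above 0 in each scaling tried, while the 40S median at 2 W was -0.01 as deposited. The median log2 ratio of the 40 genes at 1 W was 0.34 as deposited, 0.65 with division by the array median, 0.61 with the 75th percentile and 0.32 with quantile normalization. At 2 W it was 0.14, 0.98, 1.02 and 0.25. Division by 1 number per array moves all genes alike, so under the mean, median and 75th percentile and as deposited the ribosomal protein genes stood above the median of all genes by 0.54 at 1 W and 0.92 at 2 W. Quantile normalization, which forces the arrays to 1 distribution, left 0.26 and 0.22. For the ratio of 2 W to 1 W the distance was 0.39 under division and 0.01 under quantile normalization.

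**Figure D3:**
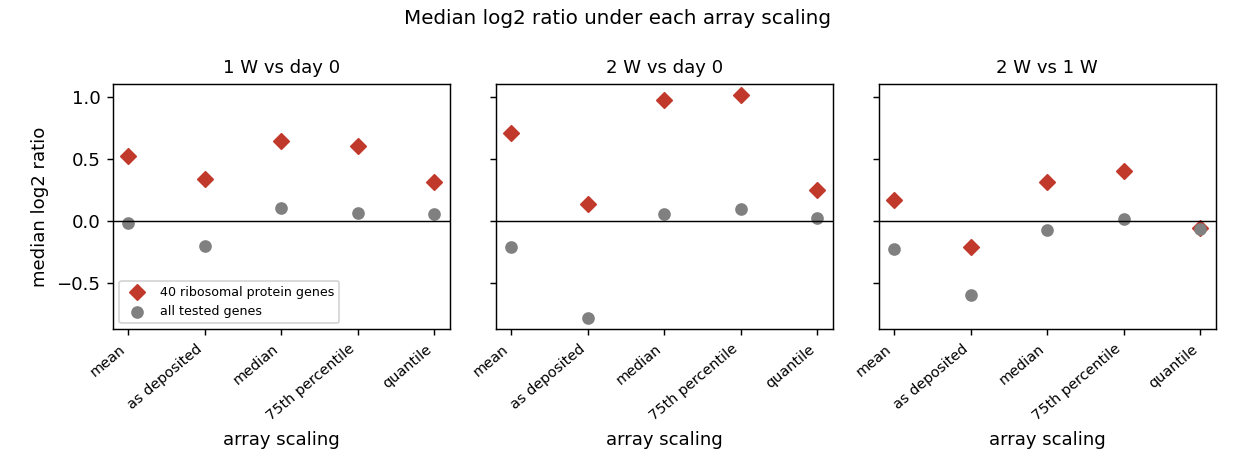
Median log2 ratio of the 40 ribosomal protein genes (diamonds) and of all tested genes (circles) under 5 array scalings, for 1 W and 2 W against day 0 and for 2 W against 1 W. Against day 0 the diamonds are above 0 and above the circles in all scalings, while for 2 W against 1 W they are at -0.21 as deposited and at -0.05 with quantile normalization.

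Because 38 of the 42 genes had probe sets in the brightest decile, the other genes of that decile were set beside them. Signal depends on the probes as well as on the transcript, so this groups probe sets and does not rank genes by RNA level. The other 1008 genes of the brightest decile had a median log2 ratio of 0.10 at 1 W (quartiles -0.19 and 0.38) and 0.08 at 2 W (quartiles -0.41 and 0.53). Their ratio was above 1 for 60.2% at 1 W and 54.0% at 2 W. In deciles 2 to 8, counted from the dimmest, the medians at 2 W were between -0.33 and -0.21. Ratios were thus also higher among bright genes in general. The ribosomal protein genes had medians of 0.53 and 0.71 beside these. The decile is not matched in brightness, since the 38 were at percentile 99.1 or above of each array and most of the 1008 were dimmer. The part of signal brightness in the result was not tested.

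**Figure D4:**
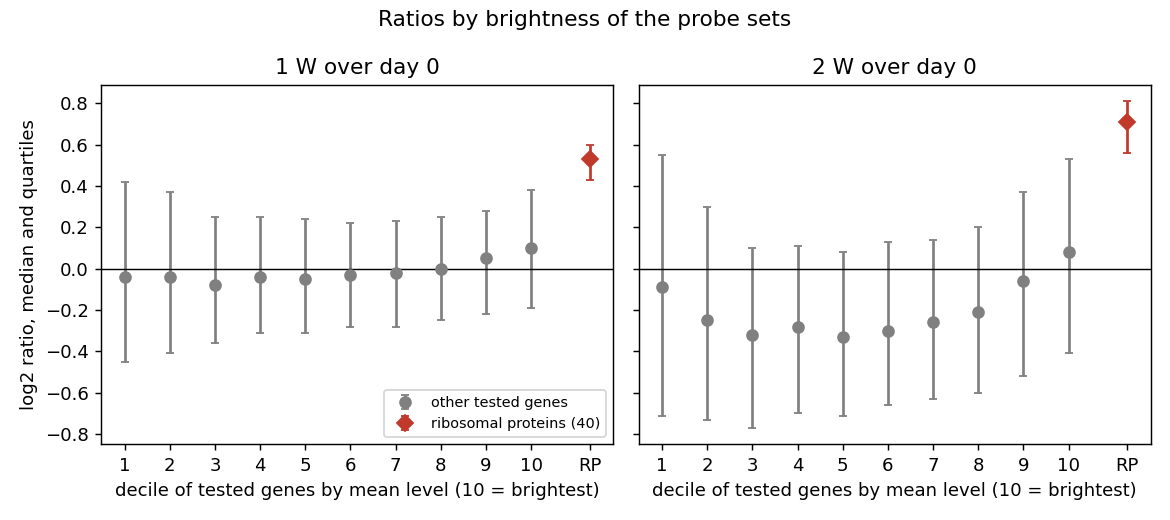
Median and quartiles (bars) of the log2 ratio to day 0 at 1 W and 2 W in deciles of the tested genes by mean level, ribosomal protein genes left out, with the 40 ribosomal protein genes (RP) at the right. The brightest decile is at 0.10 and 0.08, and the ribosomal protein genes are at 0.53 and 0.71.

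Other genes of the protein synthesis machinery were read from the same fit, and no gene of these lists of protein synthesis passed limma after adjustment. Of the other TOP mRNAs, all 12 tested were above day 0 at 1 W and 11 at 2 W, against 49.2% and 37.5% of all genes. Their median log2 ratios were 0.59 and 0.63. At an unadjusted p under 0.05, 11 were higher at 1 W and 9 at 2 W, and 0 were lower. Of all genes, 10.4% and 10.8% were higher and 8.92% and 22.0% lower, which holds beside the counts of each further list. *Eef1a1*, the elongation factor that brings tRNAs to the ribosome, had intensities of 8935 at day 0, 9701 and 8564 in the 1 W pair, and 8591 at 2 W, with log2 ratios of 0.22 and 0.51. *Eef1g*, a subunit of its exchange factor, had 4813, 7077, 6433 and 6635, with 0.68 and 1.03. *Hnrnpa1*, an RNA-binding protein, was the exception at 2 W with a log2 ratio of -0.31 after 0.58 at 1 W, and was named after its values were seen.

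Of the translation initiation factors 29 were tested, with medians of 0.38 at 1 W and 0.48 at 2 W, and 13 and 15 of them were higher at an unadjusted p under 0.05 against 1 and 0 lower. The brightest were *Eif4g2*, a scaffold of cap-independent initiation, with log2 ratios of 0.11 and 0.26, and *Eif4a2*, an RNA helicase, with 0.10 and 0.24. The 33 ribosome assembly factors had medians of 0.37 at 1 W and 0.16 at 2 W, with 13 and 1 higher and 0 and 1 lower. *Ncl*, nucleolin, had log2 ratios of 0.35 and 0.24, and *Fbl*, which methylates rRNA, had 0.86 and 0.39. From 1 W to 2 W the ratio was above 1 for 8 of the 33 assembly factors, against 32.0% of all genes, with a median log2 ratio of -0.25 beside -0.22 for all genes.

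The 13 genes of RNA polymerase I and its cofactors, which transcribe rRNA, had medians of 0.11 at 1 W and -0.24 at 2 W, with 1 and 0 higher and 0 and 1 lower. The 19 aminoacyl-tRNA synthetases, which charge tRNAs, had 0.24 and 0.27, with 5 and 6 higher and 1 and 0 lower. The 15 genes of mTORC1 and translation control had -0.05 and -0.16, with 1 and 2 higher and 2 and 3 lower. Over all genes, 10.4% and 10.8% were higher and 8.92% and 22.0% lower. In the last list *Pdcd4*, an inhibitor of the initiation helicase, had intensities of 2723 at day 0, 1908 and 1916 in the 1 W pair, and 867 at 2 W (log2 ratios -0.32 and -1.08). *Rheb*, the activator of mTORC1, had 1241, 1617, 1199 and 1533 (0.36 and 0.87). The 4 tested paralogs and like genes of ribosomal proteins had medians of 0.23 and -0.21, and of these *Rpl7l1* had log2 ratios of 0.50 and -0.07 and *Rps27l* of 0.16 and -0.16.

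**Figure D5:**
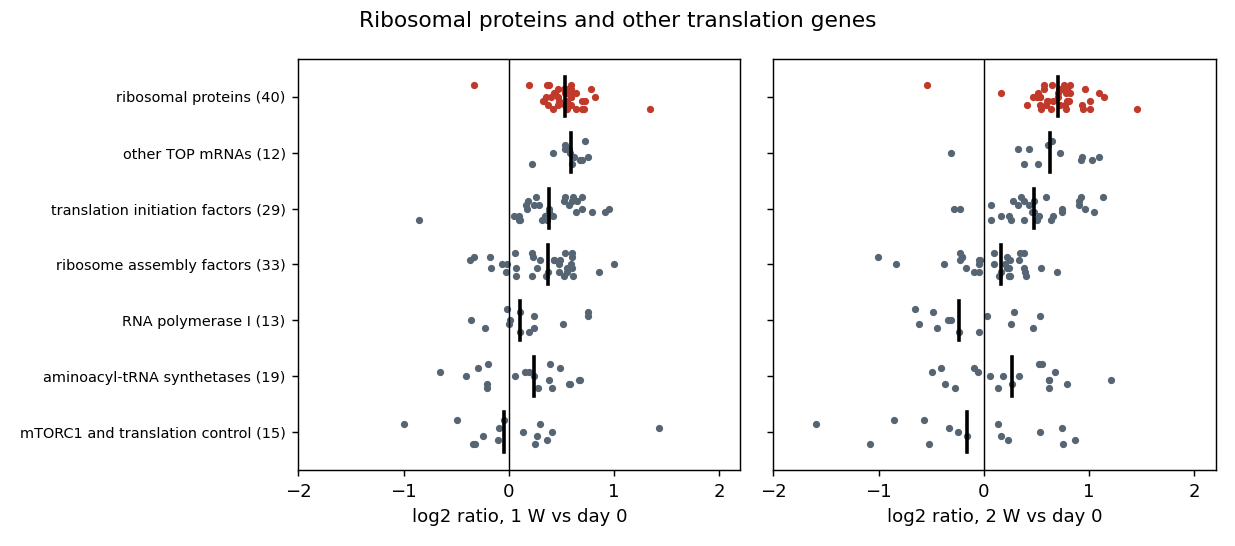
Log2 ratio to day 0 at 1 W (left) and 2 W (right), arrays scaled by their mean, of the ribosomal protein genes and of 6 further lists of the protein synthesis machinery, with the number of tested genes in brackets. Each point is a gene and bars are medians, which at 2 W run from 0.71 for ribosomal proteins to -0.24 for RNA polymerase I.

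Markers of several cell types also differed between arrays. A change in cell content and a change of these RNAs within cells cannot be told apart in such bulk samples. Of 16 listed lens epithelium markers, 15 were measured and tested, with median log2 ratios of -0.10 and -0.30. Their summed intensity was 59572 at day 0, 52141 and 47005 in the 1 W pair, and 45259 at 2 W. This list includes *Mip*, a water channel of lens fiber cells, with intensities of 941, 2976, 1139 and 8357. Its log2 ratio was 3.72 at 2 W, where 6 of the 15 genes were above day 0. The rise of *Mip* is part of the sum at 2 W. The 16 tested macrophage markers had medians of 2.28 at 1 W and 1.62 at 2 W. Summed intensities of the 18 measured were 1166, 8733, 5725 and 3270. The 11 tested markers of smooth muscle and myofibroblasts had 2.31 and 2.28 (sums 1101, 6698, 4164 and 2577), and 1 of them, the actin-binding *Tagln*, passed limma at 1 W (log2 ratio 5.94, adjusted p = 0.0297) and at 2 W (4.75). The 7 tested markers of pigment cells had 1.84 and 1.66 (sums 2694, 14731, 5095 and 6143). Of 17 listed photoreceptor markers, 15 were measured and 10 tested. The 10 had medians of -2.21 and -2.84 (sums of the 15 measured 15559, 1399, 5700 and 1411). All 10 were under 0.5-fold at both times, against 3.71% and 12.3% of all genes. The filter takes the mean over all arrays, so a marker such as *Pde6a* (125, 13.6, 55.1 and 18.5) could pass through its day 0 array. This count therefore says little, and measured markers below the filter are not in it. *Tagln* (25.1, 1513, 1195 and 456) passed the filter through the arrays after ECLE, where it was high. Its day 0 intensity was below that of *Rpl28* (25.9), which was at percentile 34.8 of that array. Day 0 intensities of *Actg2*, *Cnn1*, *Des*, *Aif1*, *Ptprc*, *Laptm5* and *Adgre1* were lower still. The limma call of *Tagln* therefore says little, and the medians for macrophages and smooth muscle include such dim genes. No marker was listed at 0. The summed intensity of the 42 ribosomal protein genes was 206043, 269838, 244278 and 227223, highest on replicate 1 of 1 W like the sums for macrophages, smooth muscle and pigment cells. Sums of the other TOP mRNAs (48999) and translation initiation factors (42322) were also highest on that array. As a share of summed intensity, the 42 genes were highest at 2 W (4.44%). The 3' to 5' ratio of the beta-actin control probe sets, which reads RNA degradation and incomplete labeling, was highest at day 0 (2.32), lower at 1 W (1.89 and 1.90) and lowest at 2 W (1.61), and that of GAPDH was between 1.10 and 1.18. The part of cell content and of RNA quality in the ribosomal protein ratios was not tested.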

How the data were processed

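RNA of rat lens capsules with LECs was hybridized to 4 Affymetrix rat genome arrays. The authors scanned them with Command Console, summarized probe sets with Affymetrix Expression Console, which the processing notes of the submitters name too, and deposited linear intensities. Which summary algorithm they ran is not given in the sources. From the deposited intensities, 57 control probe sets were left out, each of the 4 arrays was divided by its mean over the other 31042 probe sets, in keeping with the per chip normalization of the methods, and log2 was taken with no pseudocount. Gene symbols come from the platform annotation, in which 20826 probe sets have 1 symbol, 436 several and 9780 none, and symbols of all 42 genes matched RefSeq (GRCr8). Probe sets whose mean log2 level reached the 40th percentile (18625) entered limma 3.58.1 under R 4.3.3 (lmFit, eBayes with an intensity trend, a model of 3 groups, two-sided, Benjamini-Hochberg over all probe sets, threshold 0.05), with 1 residual and 3.12 prior degrees of freedom. p-values measure only the spread between the 1 W arrays. The fit was tested on simulated data. Tables and plots used Python 3.11.15, numpy 2.4.6, pandas 2.3.3 and matplotlib 3.10.9.

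The genes and lists were chosen with earlier results of these data known. Genes named are the stalk and 5S particle proteins, *Rpsa*, *Rps6* and *Rpl41*, and *Rps27a* and *Rps4x* where included, the 5 highest and 5 lowest ratios of each comparison, genes that passed limma, the 3 widest replicate gaps, genes below the filter, genes outside 0.5-fold to 2.0-fold on each array after ECLE, and the 2 brightest of each related list. The columns used are the 4 arrays, and none were left out. Settings compared were other scalings, floors, filters, eBayes options, probe set choices, the 3 arrays after ECLE as 1 group, and each 1 W replicate left out.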

Additional observations from a re-analysis of the deposited data

How the results depend on the processing

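The median log2 ratio of the 40 ribosomal protein genes kept its sign against day 0 under each scaling tried, and its size moved. At 1 W it was 0.34 as deposited, 0.65 with the array median, 0.61 with the 75th percentile and 0.32 with quantile normalization, and at 2 W 0.14, 0.98, 1.02 and 0.25. For 2 W against 1 W it turned to -0.21 as deposited and -0.05 with quantile normalization, and was 0.32 and 0.41 with the array median and 75th percentile. The 60S median for 2 W against 1 W turned likewise (-0.18 and -0.03), and so did the 40S median (-0.26 and -0.13). The 40S median at 2 W against day 0 was -0.01 as deposited. Genes passing limma at 2 W numbered 9 with the array median and 5 with the 75th percentile, beside 661 and 214 of all genes called higher. As deposited 1 was lower, beside 4415 of all genes. Genes over 2.0-fold at 2 W numbered 0 as deposited, 18 with the array median, 22 with the 75th percentile and 1 with quantile normalization, and 1 was under 0.5-fold as deposited. Over 2.0-fold at 1 W there were 2 genes with the median over a gene's probe sets and 0 without *Rpl28* and *Rpl39*, an alternative added after the data were seen. At an unadjusted p under 0.05, 11 genes were higher at 1 W and 22 at 2 W without an intensity trend. As deposited, 10 and 2 were higher, and with the 3 arrays after ECLE as 1 group, 27. For the counts by the fold rule and at an unadjusted p, the share of all genes was not counted in these settings. Without a replicate, the median at 1 W was 0.49 to 0.58 and that of 2 W against 1 W 0.14 to 0.20, with no test, since no residual degrees of freedom were left. The cause of these shifts was not tested beyond the construction of each scaling. No paired analysis was possible because day 0 and 2 W have 1 array each. With arrays and no detection calls, signal over background of the 4 dim genes is unknown.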
